A study of Mus musculus with 18 samples.

Results

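The genes described are 31 mouse genes of the Fanconi anemia pathway, homologous recombination, mismatch repair and the DNA damage checkpoint. They were taken by name from the 24062 gene symbols of the deposited count table by a rule that itself uses no measured value. The list was, however, chosen with earlier results of these data known. All 31 were found, and all 31 had enough counts to be tested. They were grouped by role into the Fanconi core complex (6 genes), the FANCI-FANCD2 clamp (2), the proteins around BRCA1 and BRCA2 (5), recombination factors (7), mismatch repair and PARP (2), break sensing (4) and the ATR checkpoint (5).

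RNA was sequenced from mouse progenitor lines made by retroviral transfer of the leukemia fusion MLL-AF9 into lineage-negative bone marrow cells, kept in interleukin-3, stem cell factor and interleukin-6. All lines carry Rosa-CreERT, a Cre recombinase that 4-hydroxytamoxifen (4OHT) switches on. WT lines have genotype +/+ at Ddx41, a DEAD-box RNA helicase, Het lines are +/flox in ethanol and labelled +/- after 4OHT, and FF lines are flox/flox in ethanol and labelled -/- after 4OHT. Each genotype received 1 µM 4OHT or the solvent ethanol (EtOH) for 48 h, with 3 libraries, A, B and C, in each of the 6 groups. The design text asks how progenitors respond to loss of Ddx41 at a time before cells without it die. The WT lines given 4OHT are the background for the agent and for active Cre. The labels give neither the number of lines behind a genotype nor the origin of the letters, so genotype and line cannot be told apart and p-values measure the spread between libraries, which may be technical.

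The Fanconi anemia pathway repairs crosslinks that join both strands of DNA. A core complex attaches ubiquitin to the paired proteins FANCD2 and FANCI, nucleases cut out the crosslink, and BRCA2 then prepares the broken end for recombination, in which the sister chromatid serves as template. The kinase ATM, called by the MRE11-RAD50-NBN complex, answers double-strand breaks, and ATR answers stalled replication forks, through the kinases CHEK2 and CHEK1 respectively. Inherited loss of the pathway causes bone marrow failure and a tendency to leukemia.

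The promoters of 5 genes are shown for orientation, as the 250 bases before the RefSeq transcription start in GRCm38.p6, written 5′ to 3′ on the strand of the gene. Brca2 and Fancb had the lowest log2 fold changes of the 31 genes in FF. Fanca and Rad54l passed the test of a difference between the FF and WT responses, and Chek2 was lower in FF after 4OHT and lower in Het than in WT. Capitals mark the letters TTTCCCGC, TTTCGCGC, TTTGCCGC and TTTGGCGC, which E2F factors are known to bind, and CCAAT, the site of NF-Y, on either strand (so that GCGGGAAA and ATTGG are the same words read from the other strand).
Brca2, chr5:150522371-150522620, plus strand: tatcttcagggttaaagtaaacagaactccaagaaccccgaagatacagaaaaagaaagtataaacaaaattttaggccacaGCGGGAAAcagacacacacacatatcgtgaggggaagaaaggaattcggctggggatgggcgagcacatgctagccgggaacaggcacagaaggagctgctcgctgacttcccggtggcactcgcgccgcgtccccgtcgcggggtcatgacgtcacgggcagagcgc
Chek2, chr5:110839733-110839982, plus strand: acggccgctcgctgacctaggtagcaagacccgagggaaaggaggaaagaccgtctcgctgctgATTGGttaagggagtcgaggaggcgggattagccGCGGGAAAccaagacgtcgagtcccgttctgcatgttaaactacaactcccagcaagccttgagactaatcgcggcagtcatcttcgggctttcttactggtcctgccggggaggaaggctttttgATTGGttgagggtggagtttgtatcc
Fanca, chr8:123318577-123318826, minus strand: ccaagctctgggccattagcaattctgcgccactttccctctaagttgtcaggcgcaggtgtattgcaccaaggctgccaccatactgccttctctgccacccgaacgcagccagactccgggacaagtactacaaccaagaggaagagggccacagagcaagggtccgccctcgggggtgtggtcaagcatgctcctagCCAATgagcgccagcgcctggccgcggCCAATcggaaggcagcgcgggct
Fancb, chrX:164980342-164980591, plus strand: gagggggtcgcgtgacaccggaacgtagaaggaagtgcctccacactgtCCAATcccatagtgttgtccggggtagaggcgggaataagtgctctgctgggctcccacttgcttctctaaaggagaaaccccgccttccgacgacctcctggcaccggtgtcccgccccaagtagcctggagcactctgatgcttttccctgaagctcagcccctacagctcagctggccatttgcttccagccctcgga
Rad54l, chr4:116123690-116123939, minus strand: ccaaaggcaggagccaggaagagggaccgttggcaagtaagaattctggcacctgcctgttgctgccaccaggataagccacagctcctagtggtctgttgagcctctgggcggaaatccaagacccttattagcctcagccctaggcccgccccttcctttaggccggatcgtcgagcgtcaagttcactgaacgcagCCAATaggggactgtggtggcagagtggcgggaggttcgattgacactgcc

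RefSeq windows of 250 bases before to 50 bases after the start were held for 24 of the 31 genes. An E2F word lay in the windows of 6 of these 24 genes (25.0%), against 2.60% of 27025 genes with a window. The 6 were Bard1, Brca2, Chek2, Fancg, Msh6 and Topbp1. The word begins 209 bases before the start in Bard1, 168 in Brca2, 152 in Chek2, 129 in Topbp1 and 52 in Fancg. In Msh6 it begins 15 bases after the start. Fancg and Msh6 did not pass the test of a change in FF. CCAAT lay in the windows of 15 of 24 genes (62.5%), against 41.1% of all genes. The cell cycle element TTTGAA, known as CHR, lay in 1 of 24 (4.17%, Bard1) against 20.2% of all genes. Matches of the 3 motifs did not overlap in any of these windows. The words and the printed promoters were chosen after the values were seen, and a match is a run of letters, not a measured binding site.

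Library totals ran from 24730213 to 49277884 counts, and the 31 genes had 129 (Fancc) to 17489 (Topbp1) counts in a library. Hematopoietic markers such as Ptprc and Spi1 were expressed in every group, 2 of the 10 fell in FF, and the 7 lymphoid markers summed to at most 0.530 CPM (counts relative to the TMM-adjusted library total). Those that fell were Myb (log2 -0.33, edgeR adjusted p = 0.0453) and Mpo, the granule enzyme myeloperoxidase (mean 1458 to 359 CPM, log2 -2.02, adjusted p = 0.0346), which had means of 3337 CPM in WT_EtOH and 117 CPM in Het_EtOH. Cd34, a progenitor marker, had a mean of at most 2.70 CPM in any group. The summed level of 11 monocyte and macrophage markers was 581 to 815 CPM in the FF_EtOH libraries and 1798 to 2361 CPM in the FF_4OHT libraries, and 6 of the 11 rose in FF. The same sum was 679 to 1379 CPM in Het_EtOH, 754 to 1761 CPM in Het_4OHT and 648 to 962 CPM in the WT libraries. In bulk RNA, fewer cells of a type and less RNA per cell cannot be told apart, and the part of the marker shift in the results below was not tested. The library labelled FF_EtOH C had 86.3 CPM of the Y-linked gene Eif2s3y, which had 0 counts in the other 5 FF libraries, and the library labelled WT_4OHT C had 0 counts against 66.4 to 101 CPM in the other WT libraries. By this gene WT_4OHT C lay with the FF libraries. FF_EtOH C lay with the WT libraries and also with the Het libraries, at 70.9 to 87.8 CPM, so the gene does not tell these apart. Tgm2 was at 25.4 CPM in WT_EtOH C and at 219.7 to 709 CPM in the other ethanol libraries, while WT_4OHT C had 479.9 CPM against 14.2 to 45.1 CPM in all other 4OHT libraries. By Tgm2 the library labelled WT_EtOH C lay with the 4OHT libraries and the one labelled WT_4OHT C with the ethanol libraries. Whether labels were exchanged was not tested, and values of the FF_EtOH, WT_EtOH and WT_4OHT groups carry that doubt. Het_4OHT A had a mean correlation of 0.959 with its group, the lowest of the 18 libraries. No library was moved or dropped, and values without some of these libraries are given for part of the calls.

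Ddx41 was examined first. The gene (chr13:55530410-55536658, GRCm38, minus strand) was at 112, 81.99 and 73.7 CPM in FF_EtOH A, B and C and at 14.6, 16.5 and 17.7 CPM in FF_4OHT A, B and C. The mean in 4OHT was 18.2% of the ethanol mean (log2 -2.45 ± 0.17 SE, edgeR adjusted p = 8.09e-07). In Het the range was 68.00 to 79.1 CPM in ethanol and 41.3 to 58.4 CPM in 4OHT (log2 -0.61, edgeR adjusted p = 0.86), with no overlap, and in WT the log2 change was 0.03. The share of recombined alleles cannot be read from counts summed over a gene.

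Of the 31 genes, 14 fell in FF cells given 4OHT (edgeR, Benjamini-Hochberg adjusted p under 0.05 over 12859 genes), which is 45.2% of them, and 8.29% of all tested genes fell. Because the list was chosen with earlier results of these data known, these shares are not an unbiased comparison. No member rose, against 5.16% of all genes, and 1 member, Rad9a, was higher at an unadjusted p under 0.05. At that unadjusted threshold 23 members were lower. The log2 change was below 0 for 30 of the 31, with a median of -0.51 against -0.02 over all tested genes. For 24 members every FF_4OHT library lay below every FF_EtOH library, where 21.5% of all tested genes did so, and for 1 member, Rad9a, every FF_4OHT library lay above, where 18.7% did. DESeq2 called 15 members lower and limma voom 13. A replicate block within Het gave 18, with Atr, Blm, Brca1 and Exo1 added (edgeR adjusted p 0.0214 to 0.045), and Rad9a rose in that fit (adjusted p = 0.0342). Leaving out FF_4OHT A, B or C gave 9, 8 or 5 members, leaving out FF_EtOH B or C gave 10 in either case, and leaving out both FF_EtOH C and WT_4OHT C gave 10. The share of all tested genes called in either direction moved as well. It was 13.4% as reported, 16.9% with DESeq2, 12.2% with limma voom and 17.9% with the block within Het. Without FF_4OHT A, B or C it was 9.08%, 7.39% or 5.37%. Without FF_EtOH B it was 9.70%, without FF_EtOH C 9.90%, and without both FF_EtOH C and WT_4OHT C 12.0%.

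**Figure D1:**
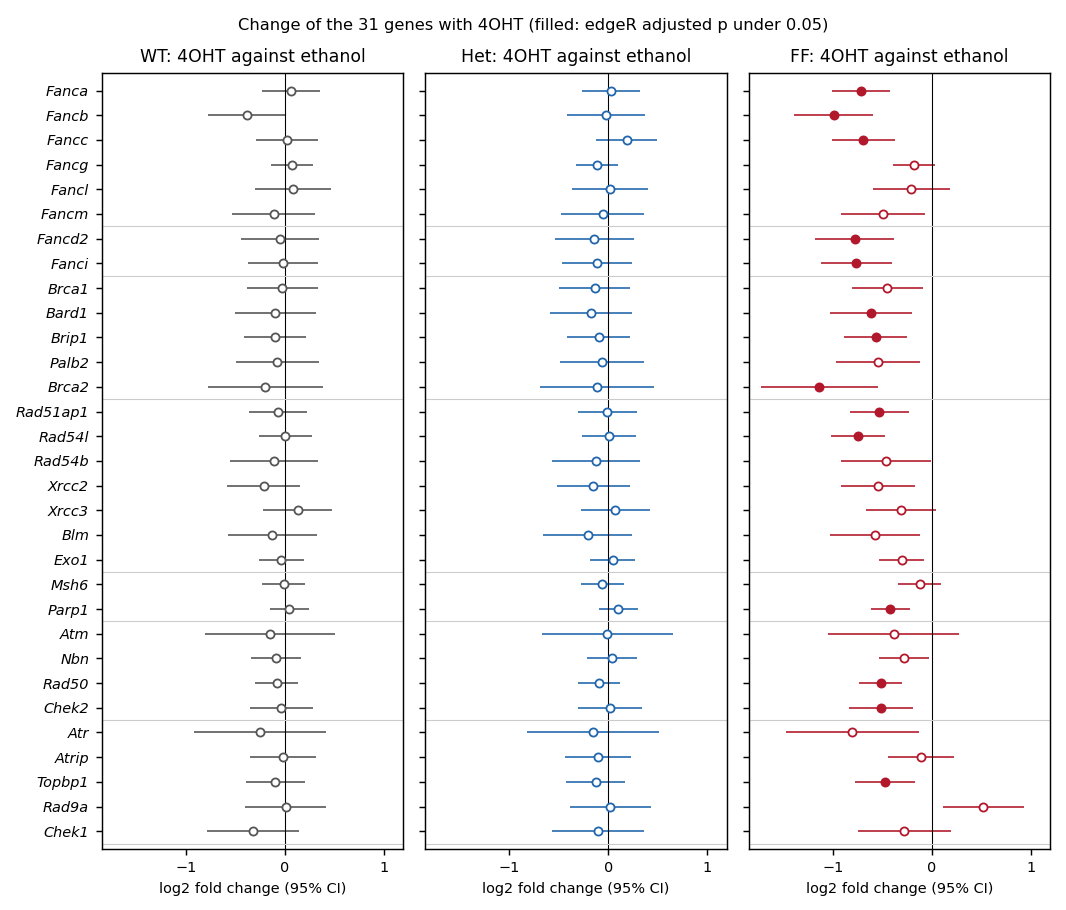
Log2 fold change of 4OHT against ethanol for each of the 31 genes, with its 95% confidence interval, in WT, Het and FF, in order of role (grey lines part the roles); filled points have an edgeR adjusted p under 0.05. In FF 14 points are filled and 30 lie below 0, and in WT and Het 0 are filled.

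The core complex held 3 genes that fell among its 6, with a median log2 change of -0.59. Fanca, a central subunit of the complex and the gene most often mutated in patients (chr8:123268300-123318576, minus strand), was at 75.6, 73.3 and 76.2 CPM in FF_EtOH A, B and C. It was at 47.4, 48.5 and 41.02 CPM in FF_4OHT A, B and C (log2 -0.72 ± 0.14 SE, edgeR adjusted p = 0.00368). The groups lay far apart, and the library FF_4OHT C was the lowest of the 18 for this gene. Fancb, an X-linked scaffold of the catalytic part of the complex (chrX:164980592-164997272, plus strand), was at 17.5, 22.5 and 20.00 CPM in ethanol and 8.92, 12.5 and 8.65 CPM in 4OHT. In 4OHT 50.2% of the ethanol mean remained (log2 -0.99 ± 0.19 SE, edgeR adjusted p = 0.00311). Fancc, which joins FANCE and FANCF in the part that holds the substrate, lies at chr13:63285043-63497278 on the minus strand. It was at 7.54, 10.1 and 10.2 CPM in ethanol and 6.104, 5.78 and 5.37 CPM in 4OHT (log2 -0.69 ± 0.15 SE, edgeR adjusted p = 0.00661). Neither gene overlapped between the FF groups, and the low ethanol value of Fancc was that of FF_EtOH A. The other 3 genes did not pass the test. Fancm, a translocase that recognises the crosslink, had a log2 change of -0.49 (edgeR adjusted p = 0.115) with all 3 FF_4OHT libraries, at 33.95 to 38.2 CPM, below the ethanol libraries at 43.3 to 55.8 CPM. Fancg, a bridge between subunits, and Fancl, the ubiquitin ligase itself, had log2 changes of -0.18 and -0.21, and the Fancl libraries overlapped. Fanca shares 10.5% of its exon bases with Zfp276 on the other strand, whose counts went the other way (22.96 to 24.2 CPM in ethanol, 44.9 to 49.8 CPM in 4OHT), and the strand setting of the counting is not given in the sources used here.

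Both genes of the clamp fell. Fancd2 (chr6:113531682-113597017, plus strand), whose protein is the main target of the core complex, was at 58.9, 57.1 and 51.6 CPM in ethanol and 36.4, 34.1 and 27.1 CPM in 4OHT in FF. Fanci (chr7:79391929-79450264, plus strand), its partner, was at 26.4, 34.01 and 31.6 CPM in ethanol and 19.4, 18.8 and 16.1 CPM in 4OHT. Their log2 changes were -0.78 ± 0.19 (SE, edgeR adjusted p = 0.0129) and -0.76 ± 0.17 (adjusted p = 0.00786), so that 58.3% and 59.0% of the ethanol mean remained. For both genes FF_4OHT C was the lowest library. Without FF_4OHT C the adjusted p was 0.0998 for Fancd2 and 0.0653 for Fanci, with the direction kept. Fanci shares 15.95% of its exon bases with Polg on the other strand, and Polg was at 100.5 to 107 CPM in FF_EtOH and 79.7 to 81.1 CPM in FF_4OHT.

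All 5 genes around BRCA1 and BRCA2 had log2 changes below 0, with a median of -0.56, and 3 of them fell. Brca2, which prepares single-stranded DNA for recombination (chr5:150522630-150570329, plus strand), had the lowest log2 change of the 31 genes. It was at 53.7, 63.4 and 58.6 CPM in FF_EtOH A, B and C and 31.2, 27.9 and 20.8 CPM in FF_4OHT A, B and C, a mean of 45.5% of ethanol (log2 -1.14 ± 0.28 SE, edgeR adjusted p = 0.0138). The FF groups did not overlap, but Brca2 also varied within other groups: 37.6 to 66.2 CPM in WT_EtOH, 41.2 to 62.9 in WT_4OHT and 33.99 to 76.6 in Het_4OHT. The call was lost without FF_4OHT B and without FF_4OHT C (adjusted p 0.0501 and 0.095). Bard1, the obligate partner of BRCA1 in its ubiquitin ligase (chr1:71027498-71103146, minus strand), was at 23.3, 33.9 and 35.03 CPM in ethanol and 19.7, 20.95 and 19.6 CPM in 4OHT. Brip1, a helicase that binds BRCA1 and is also known as FANCJ (chr11:86058138-86201193, minus strand), was at 52.2, 46.7 and 44.9 CPM in ethanol and 31.2, 35.3 and 30.7 CPM in 4OHT. The log2 changes were -0.61 ± 0.20 for Bard1 (SE, edgeR adjusted p = 0.0487) and -0.56 ± 0.15 for Brip1 (adjusted p = 0.021), without overlap in either gene. The Bard1 value stood close to the threshold and passed it in 7 of 31 alternative analyses, with adjusted p from 0.051 to 0.175 in the 15 analyses without 1 library that lost it, the highest without FF_4OHT C. The Brip1 call was lost without FF_EtOH A, FF_4OHT A, B or C (adjusted p 0.0505 to 0.12). Brca1 itself (log2 -0.45, edgeR adjusted p = 0.0919) and Palb2, the link between BRCA1 and BRCA2 (log2 -0.54, adjusted p = 0.0848), did not pass. Brca1 was at 80.9 to 101 CPM in FF_EtOH and 62.9 to 69.7 CPM in FF_4OHT, while the Palb2 libraries overlapped.

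Of the 7 recombination factors, 2 fell, with a median log2 change of -0.53 over the 7. Rad54l, a DNA translocase that acts during strand invasion (chr4:116094264-116123690, minus strand), had the smallest adjusted p of the 31 genes. It was at 51.2, 61.2 and 63.4 CPM in ethanol and 35.4, 37.2 and 32.2 CPM in 4OHT (log2 -0.75 ± 0.13 SE, edgeR adjusted p = 0.00164). Lrrc41, which shares 15.4% of the Rad54l exon bases on the other strand, was at 52.5 to 66.2 CPM in FF_EtOH and 65.4 to 67.02 CPM in FF_4OHT. Rad51ap1, which promotes pairing of homologous strands (chr6:126923050-126939587, minus strand), was at 40.9, 61.3 and 63.5 CPM in ethanol and 38.8, 39.7 and 36.2 CPM in 4OHT. Its log2 change was -0.53 ± 0.14 (SE, edgeR adjusted p = 0.0207), and FF_EtOH A lay close above the 4OHT libraries. Without FF_EtOH B, FF_EtOH C or any of the FF_4OHT libraries the adjusted p of Rad51ap1 was 0.0501 to 0.0937. The remaining 5 did not pass. Xrcc2, a recombination mediator, came nearest (log2 -0.54, edgeR adjusted p = 0.0509), at 19.5 to 33.7 CPM in ethanol and 17.4 to 19.2 CPM in 4OHT. Blm, the helicase that dissolves double Holliday junctions, was at 102 to 107 CPM in ethanol and 60.5 to 77.5 CPM in 4OHT (log2 -0.57, adjusted p = 0.0912). Exo1, an exonuclease that resects break ends, had -0.30 (adjusted p = 0.0735), Xrcc3, another mediator, -0.31, and Rad54b, a relative of Rad54l, -0.46. Rad54b libraries overlapped between the FF groups, and 35.8% of its exon bases are shared with Fsbp on the same strand.

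Parp1, the abundant sensor of strand breaks that makes poly(ADP-ribose) (chr1:180568924-180601254, plus strand), fell, and Msh6, which recognises mismatches, did not pass the test. Parp1 was at 196, 220.1 and 187 CPM in FF_EtOH A, B and C and at 153, 157 and 142 CPM in FF_4OHT A, B and C, without overlap. Its log2 change of -0.42 ± 0.09 (SE, edgeR adjusted p = 0.00797) was the smallest in size among the 14, and without FF_4OHT C the adjusted p was 0.0634. Msh6 was at 115 to 129.5 CPM in ethanol and 109 to 118 CPM in 4OHT (log2 -0.12), and the libraries overlapped.

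Among the 4 genes of break sensing, Rad50 and Chek2 fell. Rad50, the coiled-coil subunit that tethers DNA ends (chr11:53649519-53707319, minus strand), was at 103, 118 and 113 CPM in ethanol and 78.3, 76.9 and 78.2 CPM in 4OHT. The 3 FF_4OHT libraries lay close together (SD 0.775 CPM), and the log2 change was -0.52 ± 0.10 (SE, edgeR adjusted p = 0.00368). Chek2, the kinase downstream of ATM (chr5:110839979-110874145, plus strand), was at 34.1, 43.3 and 51.2 CPM in ethanol and 30.7, 31.6 and 27.7 CPM in 4OHT. Its log2 change was -0.51 ± 0.15 (SE, edgeR adjusted p = 0.0356), and the adjusted p was 0.0744 to 0.16 without FF_EtOH B, FF_EtOH C or any of the FF_4OHT libraries. Atm and Nbn did not pass, at log2 -0.38 (edgeR adjusted p = 0.46) and -0.28 (adjusted p = 0.13), although their 3 FF_4OHT libraries lay below the 3 FF_EtOH libraries. Atm was at 65.4 to 84.6 CPM in FF_EtOH and 56.9 to 59.6 CPM in FF_4OHT, and it ranged from 25.8 to 83.2 CPM within Het_4OHT.

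The ATR checkpoint was the least uniform group, with 1 gene of 5 that fell, a median of -0.28 and the single value above 0. Topbp1, the activator of ATR (chr9:103305215-103350428, plus strand), was at 381, 394 and 406 CPM in ethanol and 293, 301 and 254 CPM in 4OHT (log2 -0.48 ± 0.14 SE, edgeR adjusted p = 0.0379). It was the member with the most counts, and its groups did not overlap. The call was lost in 10 of the 18 analyses without 1 library, among them those without each of the FF libraries (adjusted p up to 0.206, without FF_4OHT C). Atr was at 48.1, 68.6 and 65.5 CPM in ethanol and 39.8, 37.2 and 27.5 CPM in 4OHT, without overlap, yet its log2 change of -0.80 ± 0.32 did not pass (SE, edgeR adjusted p = 0.108). Its spread in other groups was wide, from 35.2 to 86.1 CPM within Het_4OHT and from 37.9 to 74.8 CPM within WT_EtOH. Chek1, the kinase that ATR activates, and Atrip, the partner that brings ATR to single-stranded DNA, had log2 changes of -0.28 and -0.11 with overlapping libraries. Atrip shares 16.04% of its exon bases with the exonuclease gene Trex1 on the same strand. Rad9a, a subunit of the ring-shaped 9-1-1 clamp that brings TOPBP1 to ATR (chr19:4195196-4201662, minus strand), stood apart in direction. It was at 50.04, 53.5 and 56.9 CPM in FF_EtOH A, B and C and at 66.4, 80.6 and 83.3 CPM in FF_4OHT A, B and C, with no overlap. The log2 change of 0.52 ± 0.19 did not pass (SE, edgeR adjusted p = 0.0881), and WT_EtOH C, at 66.5 CPM, reached the level of FF_4OHT A. In 5 of 31 alternative analyses the Rad9a rise passed, among them those without WT_EtOH C, a library in doubt, and without Het_4OHT A. Ppp1ca, which shares 9.53% of the Rad9a exon bases on the other strand, was at 497 to 635 CPM in FF_EtOH and 497 to 539 CPM in FF_4OHT.

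**Figure D2:**
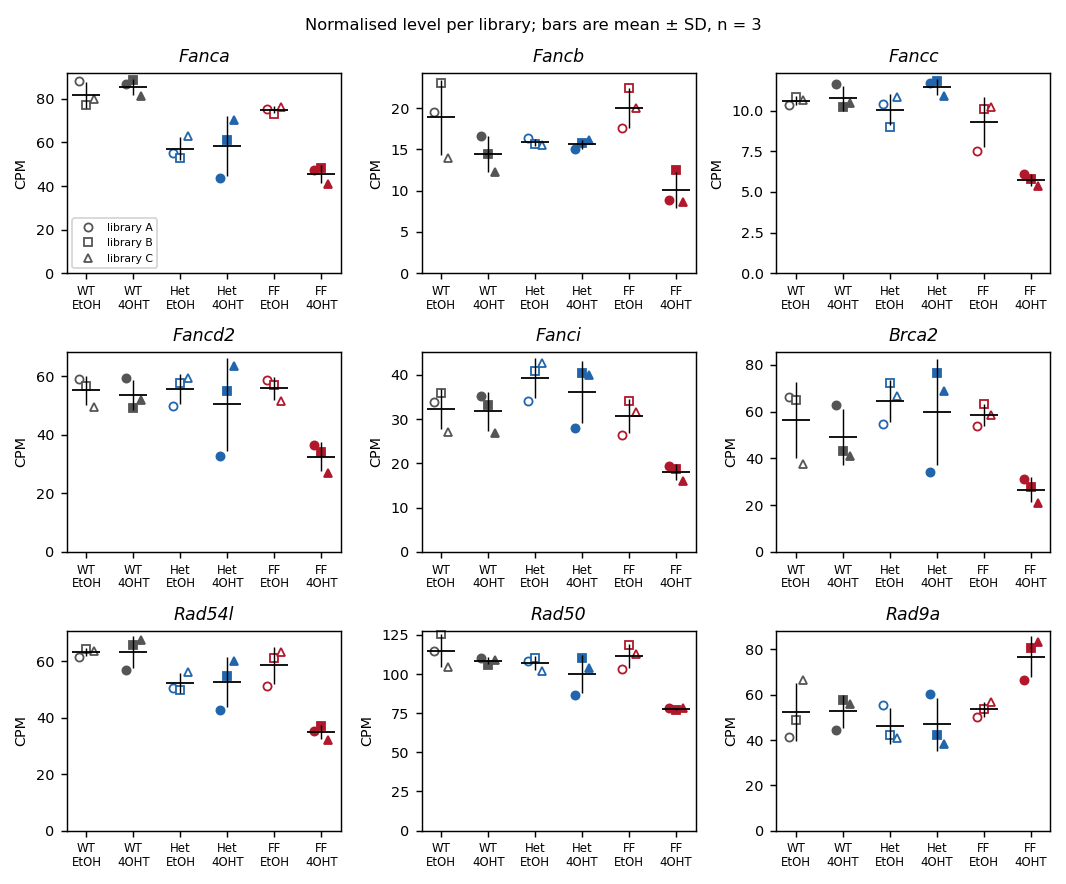
TMM-normalized CPM of 8 members that fell in FF and of Rad9a in each library, by group; circles, squares and triangles are libraries A, B and C, and bars are the mean ± SD (n = 3). The FF_4OHT libraries lie below the FF_EtOH libraries for the 8 and above them for Rad9a (66.4 to 83.3 against 50.04 to 56.9 CPM).

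Per exon length, the mean over the 3 ethanol groups ordered the members from Parp1 (40.7 RPKM, the CPM divided by exon length), Topbp1 (34.1) and Msh6 (31.4) to Palb2 (2.62), Rad54b (2.37) and Fancc (1.196). Brca2 and Fancb, the members with the lowest log2 changes in FF, were at 4.38 and 6.11 RPKM.

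In Het cells given 4OHT, 0 of the 31 genes passed the edgeR test, 0 had an unadjusted p under 0.05, and DESeq2 and limma voom called 0. Over all tested genes 0.0156% were called. Log2 changes ran from -0.21 (Blm) to 0.19 (Fancc), with a median of -0.06. In Fancc the 3 Het_4OHT libraries, at 10.9 to 11.8 CPM, lay above the 3 ethanol libraries, at 8.99 to 10.8 CPM, and in Fancg they lay below, at 35.1 to 39.8 against 39.96 to 42.1 CPM, where 2.23% and 2.71% of all tested genes did so. With a replicate block within Het, the count of called members was also 0. In WT cells 0 members were called, 0 had an unadjusted p under 0.05, DESeq2 and limma voom called 0, and 0.0% of all tested genes were called. The WT log2 changes ran from -0.38 (Fancb) to 0.13 (Xrcc3) with a median of -0.07. Libraries of every member overlapped between WT_EtOH and WT_4OHT, where 1.97% of all tested genes lay lower and 2.85% higher without overlap. These WT values include WT_EtOH C and WT_4OHT C, whose labels are in doubt. Without these and FF_EtOH C, 0 members and 0.0307% of all tested genes were called in WT. A count of 0 here does not show that 4OHT left WT cells unchanged.

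The difference between responses was tested directly. Relative to WT, 2 of the 31 genes differed, both with a more negative response in FF, against 2.3% of all tested genes (1.89% more negative and 0.412% more positive in FF). They were Rad54l (log2 difference -0.75 ± 0.18 SE, edgeR adjusted p = 0.0408) and Fanca (-0.78 ± 0.20, adjusted p = 0.0493). In WT, Rad54l was at 61.5, 64.4 and 63.5 CPM in ethanol and 56.9, 65.6 and 67.6 CPM in 4OHT, and Fanca was at 88.4, 77.2 and 79.9 CPM in ethanol and 86.8, 88.6 and 81.3 CPM in 4OHT. Relative to Het, 3 members differed, again with a more negative response in FF, against 2.5% of all tested genes (2.09% more negative and 0.404% more positive). They were Fancc (-0.88 ± 0.21 SE, edgeR adjusted p = 0.0365), Rad54l (-0.75 ± 0.18, adjusted p = 0.0371) and Parp1 (-0.52 ± 0.13, adjusted p = 0.0483). Parp1 in Het was at 226.5, 220.5 and 246.5 CPM in ethanol and 241, 238 and 264 CPM in 4OHT, all above the FF_4OHT libraries. Without FF_EtOH C and WT_4OHT C the adjusted p was 0.154 for Rad54l and 0.12 for Fanca against WT, and 0.0714, 0.0775 and 0.0521 for Fancc, Rad54l and Parp1 against Het. Each of these 5 values lay near the threshold, and without FF_4OHT C, the adjusted p was 0.159 and 0.195 for Rad54l and Fanca against WT and 0.141, 0.163 and 0.207 for Fancc, Rad54l and Parp1 against Het. Both differences share the FF libraries, so they are not independent. With a replicate block within Het, where same-letter libraries deviated together, 3 members differed from WT, with Parp1 added (edgeR adjusted p = 0.049), and 4 from Het, with Fanca added (adjusted p = 0.0195). For the remaining members the difference did not pass in the fit without a block, and the calls in FF alone do not show one.

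In ethanol, 0 of the 31 genes differed between FF and WT (0 at an unadjusted p under 0.05, 0 by DESeq2 and limma voom), against 0.0% of all tested genes. The log2 differences ran from -0.39 (Rad54b) to 0.22 (Blm). The FF and WT libraries did not overlap for Fanca and Fancc, lower in FF, and for Blm, higher in FF, where 4.95% and 4.11% of all tested genes did so. These values include FF_EtOH C, whose label is in doubt. Without FF_EtOH C and WT_4OHT C, 4.71% of all tested genes differed between FF and WT in ethanol, 418 higher and 196 lower in FF. Without Het_4OHT A as well, 7.55% did, Rad54b among them. A count of 0 here does not show that the lines were alike. Between Het and WT in ethanol, 3 members differed, all lower in Het, where 23.7% of all tested genes were called, 10.4% lower and 13.3% higher. Chek2 was at 26.5, 33.9 and 24.9 CPM in Het_EtOH and 42.6, 47.02 and 47.8 CPM in WT_EtOH (log2 -0.69 ± 0.15 SE, edgeR adjusted p = 0.00357). Fanca was at 55.3, 53.1 and 63.2 CPM in Het_EtOH against the WT values above (log2 -0.52 ± 0.14, adjusted p = 0.0127), and Nbn was at 41.7, 36.8 and 36.3 CPM in Het_EtOH and 52.6, 51.06 and 41.7 CPM in WT_EtOH (log2 -0.34 ± 0.12, adjusted p = 0.0491). For Chek2 and Fanca the groups were well apart, while for Nbn the highest Het library lay just under the lowest WT library. Chek2 in Het_EtOH lay at the level of Chek2 in FF_4OHT (27.7 to 31.6 CPM). The Nbn value stood close to the threshold and passed it in 11 of 31 alternative analyses, the Fanca value in 24 and the Chek2 value in all 31. Fanca did not pass without WT_EtOH A, WT_EtOH C, Het_EtOH A or Het_EtOH B (adjusted p 0.0514 to 0.105), and Nbn had its highest adjusted p among these, 0.227, without Het_EtOH B.

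The library Het_4OHT A set the spread of many members. Against the mean of Het_4OHT B and C, its 10 members with at least 8000 exon bases had a median log2 difference of -0.89 and its 7 members under 4000 exon bases one of 0.05. Over all tested genes with a length, the same medians were -0.60 and 0.27. Atm was at 25.8 CPM in Het_4OHT A and 83.2 and 81.5 CPM in B and C, Brca2 was at 33.99 CPM against 76.6 and 68.8, and Atr at 35.2 CPM against 86.1 and 78.01. These are among the longest members, and Atr has 23629 exon bases. Exon bases are the union of all annotated exons of a gene, which can exceed the length of a transcript. In the FF response, long members had a median of -0.53 and short members one of -0.28, and all genes of these lengths had -0.05 and 0.00. Rn45s, the ribosomal RNA precursor, was at 14895 CPM in Het_4OHT A against 1964 and 3308 CPM in Het_4OHT B and C. It was at 3828 to 6464 CPM in FF_EtOH and at 5987, 18286 and 41159 CPM in FF_4OHT A, B and C, so that FF_4OHT A lay within the ethanol range (edgeR adjusted p = 0.0586 in FF). The part of transcript length or RNA quality in the FF falls was not tested. Without Het_4OHT A, 20 members were lower in FF and 1, Rad9a, was higher, 6 differed from WT and 9 from Het in response, and 5 differed between Het and WT in ethanol. Calls over all tested genes, in either direction, were also more frequent in that fit. They were 20.5% in FF, 4.82% for the difference from WT, 3.69% for that from Het and 30.4% between Het and WT in ethanol.

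**Figure D3:**
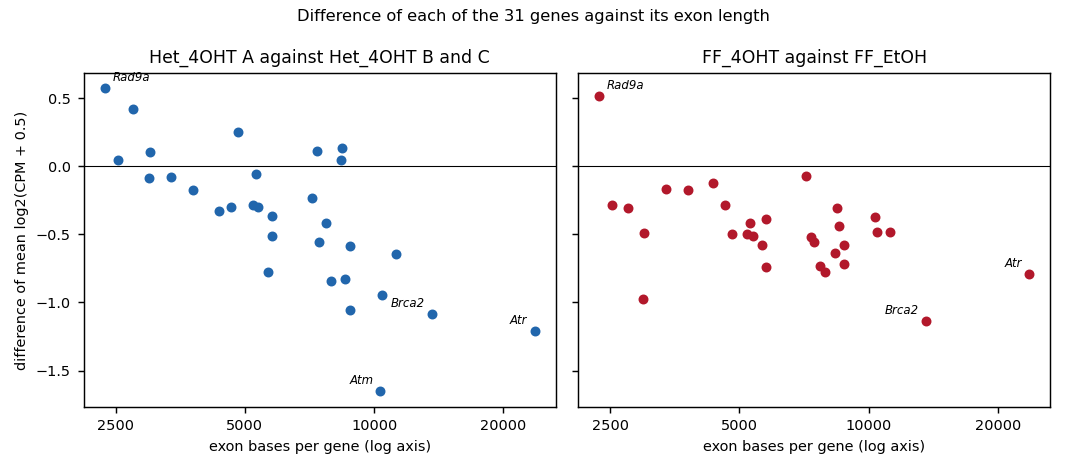
Difference of mean log2(CPM + 0.5) of each of the 31 genes against its exon bases (log axis), for Het_4OHT A against Het_4OHT B and C (left) and for FF_4OHT against FF_EtOH (right). On the left the 10 members with at least 8000 bases have a median of -0.89, and on the right Rad9a, the shortest member, is the point above 0.

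Other genes of the same pathways were read from lists chosen with earlier results of these data known. Of 17 other Fanconi genes, 4 fell and 0 rose in FF (median log2 -0.38), among them Fance of the core complex (21.7 ± 0.93 to 13.5 ± 0.94 CPM, SD, n = 3, log2 -0.68, edgeR adjusted p = 0.017), Faap24, the DNA-binding partner of FANCM (log2 -0.62), and Wdr48, the cofactor of the deubiquitinase USP1 (-0.38). Of 34 other recombination genes, 15 fell and 1 rose (median -0.34), and the 3 with the smallest adjusted p were the helicase genes Recql4 (-0.94), Rtel1 (-0.80) and Mcm8 (-0.93). Of 6 other mismatch repair genes, 4 fell (median -0.47), among them Msh3, which recognises larger loops, at -0.55, whereas Msh6 did not pass. Of 25 other checkpoint genes, 5 fell and 1 rose (median -0.29): H2afx, the histone that marks breaks, had -1.21, Clspn, the adaptor between ATR and CHEK1, had -0.66, and Tti2, a chaperone cofactor for ATM and ATR, rose from 20.3 ± 2.32 to 40.7 ± 0.37 CPM (log2 1.00, edgeR adjusted p = 0.000317). These counts and those of the other repair routes stand beside the 8.29% of all tested genes that fell and the 5.16% that rose. In end joining 1 of 9 fell (Xrcc6, -0.48), in nucleotide excision repair 1 of 14 fell and 1 rose (Ddb1, -0.30, and Ercc5, 0.98), and in base excision repair 4 of 16 fell (for example Neil3, -1.23, Mutyh, -0.78, and Parp2, -0.36).

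Cell cycle genes, also in lists chosen with earlier results of these data known, fell in FF as well. Over all tested genes 8.29% fell and 5.16% rose in FF. Of 28 S phase genes 11 fell and 0 rose in FF (median log2 -0.35), with Rfc5 at -0.94, Pold1 at -0.78 and Mcm7 at -0.73, and of 26 genes of G2 and mitosis 22 fell and 0 rose (median -0.65), with Ccna2 at -0.85, Kif20a at -0.84 and Dlgap5 at -0.59. In FF_4OHT A, B and C the median log2 difference from the FF ethanol mean was -0.50, -0.39 and -0.55 for the 31 genes, -0.39, -0.29 and -0.41 for the S phase list and -0.54, -0.58 and -0.84 for the mitosis list. In Het_4OHT A the members had a median of -0.30 while the S phase list was at 0.20 and the mitosis list at 0.045. Long genes in general were low in that library. Against Het_4OHT B and C, the median was -0.60 over all genes of at least 8000 exon bases and 0.27 over those under 4000. The part of exon length in the difference between the lists was not tested. The part of cell cycle state in the falls of the members was not tested.

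**Figure D4:**
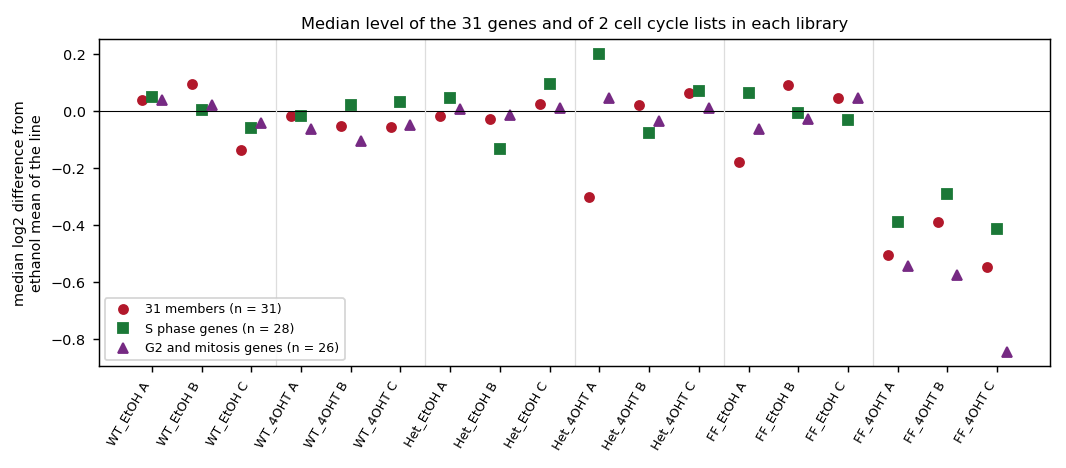
Median log2 difference of each library from the ethanol mean of its line, for the 31 genes (circles), 28 S phase genes (squares) and 26 genes of G2 and mitosis (triangles). The FF_4OHT libraries lie lowest in all 3 lists, and Het_4OHT A is low for the 31 genes alone (-0.30).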

How the data were processed

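The values are raw read counts of the authors for 18 libraries, 1 row per gene symbol. The build was mm10, and the submitters' processing notes name HISAT2 2.0.5, featureCounts 1.5.2, Subread, FastQC 0.11.7 and CASAVA 1.4. Strand setting, annotation and multi-mapping rule were not given in the sources used here. No library pair was identical (0 pairs).

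Genes were kept by filterByExpr with a minimum count of 10. The edgeR 4.0.16 fit (R 4.3.3, robust quasi-likelihood, TMM) held the 18 libraries and the 6 group means. Adjusted p-values are Benjamini-Hochberg values over 12859 genes, with a threshold of 0.05. Standard errors come from the F statistic, and CPM are TMM-normalized. Locations, exon lengths and overlaps come from GENCODE M21 (GRCm38), and promoters from RefSeq (GRCm38.p6). The exon length of a gene is the union of the exons of all its annotated transcripts. The scripts were tested on simulated data.

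Members, lists and rules were chosen with earlier results of these data known. After Ddx41, all members are named, those past a threshold with their value in each library, and up to 3 genes of each wider list by smallest adjusted p. Some genes that this rule takes are not reported here, but list counts include them. Of 208 list genes, 206 were found, 8 of them under an older symbol. Trex1, Polg, Lrrc41, Zfp276, Ppp1ca, Tgm2, Eif2s3y and Rn45s were named because a member's result touches them.

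Groups share letters, so deviations from group means were correlated between libraries of the same letter. The values were 0.48, 0.70 and 0.40 in Het, 0.39, -0.02 and 0.25 in WT and 0.17, 0.18 and 0.07 in FF. Between libraries of different letters they ran from -0.49 to -0.01 in Het, -0.41 to 0.16 in WT and -0.15 to 0.01 in FF. Every same-letter value lay above all different-letter values in Het and in FF, but not in WT, and the same-letter values were highest in Het.

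Alternatives were DESeq2 size factors, library-size scaling, no filter, 5 CPM in 3 libraries, DESeq2 1.42.0, voom in limma 3.58.1, a fit to the compared groups, a replicate block, an adjusted p of 0.01, each library left out, and fits without FF_EtOH C and WT_4OHT C, with or without WT_EtOH C. A block within Het and a fit without FF_EtOH C, WT_4OHT C and Het_4OHT A were chosen after the data had been seen.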

Additional observations from a re-analysis of the deposited data

Results flagged for a closer look

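For 4 members the response to 4OHT differed between FF and another genotype by the test of the difference itself. Against WT the log2 difference was -0.78 for Fanca and -0.75 for Rad54l. Against Het it was -0.88 for Fancc, -0.75 for Rad54l and -0.52 for Parp1. All 5 had edgeR adjusted p-values between 0.0365 and 0.0493, close to the threshold. Of 31 alternative analyses, 6 kept the call of Fanca and 13 that of Rad54l against WT, and 9, 11 and 5 kept those of Fancc, Rad54l and Parp1 against Het. All groups have 3 libraries, so no outlier rule was applied to single libraries. FF_EtOH C, WT_4OHT C, WT_EtOH C and Het_4OHT A were singled out by Eif2s3y, Tgm2 or the correlation with their group.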

How the results depend on the processing

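At an adjusted p of 0.01, 7 members were lower in FF, where 5.32% of all tested genes were called in either direction. With no Het library (a fit to the compared groups), with a block within Het and without FF_EtOH C, WT_4OHT C and Het_4OHT A, 1 member, Rad9a, was higher. Rad9a was also higher without WT_EtOH C alone and without Het_4OHT A alone. The number whose FF response differed from WT, 2 as reported, was 1 with DESeq2 size factors, 5 CPM, voom or the replicate block in all groups. It was 0 with library-size scaling, no filter, a threshold of 0.01, without FF_EtOH C and WT_4OHT C, and without these and WT_EtOH C, and 4 with DESeq2 and without FF_EtOH C, WT_4OHT C and Het_4OHT A. Against Het, 3 as reported became 0 with library-size scaling, no filter, the compared groups alone, 0.01, and both fits without FF_EtOH C and WT_4OHT C, 5 with DESeq2 and 6 without FF_EtOH C, WT_4OHT C and Het_4OHT A. In that last fit 1 member (Rad54b) differed between FF and WT in ethanol. Between Het and WT in ethanol, 1 member differed with library-size scaling and at 0.01. The share of all tested genes called moved too. Against WT it ran from 0.381% at 0.01 to 5.15% with DESeq2, and against Het from 0.412% at 0.01 to 5.63% with DESeq2. The cause of these shifts was not tested.

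With single libraries left out, counts ran from 5 to 20 (lower in FF), 0 to 1 (higher in FF), 0 to 0 (Het and WT, each), 0 to 6 (FF minus WT), 0 to 9 (FF minus Het), 0 to 0 (FF and WT in ethanol) and 1 to 5 (Het and WT in ethanol). Over the same fits the share of all tested genes called in FF ran from 5.37% to 20.5%. The log2 change of Atrip in FF ran from -0.32 to 0.033 and changed sign without FF_EtOH B (0.0332). The replicate block in all groups gave 14 members lower in FF, and the block within Het gave 18 lower in FF and 0 in Het, with 3 members different in response from WT and 4 from Het. Fanca, Fancb, Fancc, Rad50 and Rad54l were lower in FF in all 31 alternatives. With 3 libraries a group, a p above the threshold does not show that a gene was unchanged.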
